A study of Mus musculus with 9 samples.

Results

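The mitochondrially encoded transcripts are the 37 genes whose name begins with mt- among the 47729 genes with an FPKM value (fragments scaled for gene length and library size). They comprise 13 protein-coding genes, 2 rRNA genes and 22 tRNA genes, and the rule that chooses them is their name and uses no measured value. They were measured in mouse ESCs, pluripotent cells of the early embryo, that were derived from the E14tg2α line and carried a dox-inducible transgene for a forced E2A homodimer. In this transgene a FLAG-tagged E47 protein is joined by a linker to a further E47 protein, and the cassette sits upstream of Hprt under a promoter that responds to doxycycline (dox). All 9 libraries came from this line in LIF/serum, with 3 replicates taken without dox (0 h) and 3 each after 18 h and 24 h with dox at 1 µg/ml. The treatment protocol entered with the samples names other durations, and the times used are those of the sample titles and treatment entries. ESCs that received dox but lacked the transgene were not analysed here, and all libraries without dox were taken at 0 h. Effects of dox, of the E2A homodimer and of time in culture therefore cannot be told apart. The replicates are described as biological experiments with this single line, so p values measure the spread between libraries of 1 line.

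The mitochondrial genome of the mouse is a small circle present in many copies per cell. Both of its strands are read into long precursor RNAs, and in the usual view the tRNAs that lie between the other genes mark the points at which RNase P and the tRNA 3′ processing enzyme ELAC2 cut these precursors. The mRNAs released in this way encode core subunits of complexes I, III, IV and V of the respiratory chain and ATP synthase, and the rRNAs and tRNAs serve the mitochondrial ribosome. All other subunits, and every protein that copies, processes or translates mitochondrial RNA, are encoded in the nucleus. Dox belongs to the tetracyclines, which bind bacterial ribosomes and also slow translation on mitochondrial ribosomes. The libraries were made from polyadenylated RNA, and mature mitochondrial tRNAs carry no poly(A) tail, so reads on tRNA genes are not taken here as a measure of mature tRNA.

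Transcript sequences were read from GENCODE M21 on GRCm38. The following 6 tRNA genes had a mean of at least 10 reads per library and are those on which the results for this class turn. They are shown from 5′ to 3′ as DNA, with the anticodon in capitals. The tRNAs for threonine (mt-Tt, chrM:15289-15355), tryptophan (mt-Tw, chrM:4950-5016), leucine (mt-Tl1, chrM:2676-2750) and methionine (mt-Tm, chrM:3845-3913) lie on the plus strand. The tRNAs for glutamine (mt-Tq, chrM:3772-3842) and proline (mt-Tp, chrM:15356-15422) lie on the minus strand.
mt-Tt: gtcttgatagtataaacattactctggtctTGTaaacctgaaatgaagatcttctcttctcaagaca
mt-Tw: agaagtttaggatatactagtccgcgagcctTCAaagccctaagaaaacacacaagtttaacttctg
mt-Tl1: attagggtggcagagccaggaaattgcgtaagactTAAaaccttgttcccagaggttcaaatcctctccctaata
mt-Tm: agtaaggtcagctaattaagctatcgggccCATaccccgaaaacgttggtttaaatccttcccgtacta
mt-Tq: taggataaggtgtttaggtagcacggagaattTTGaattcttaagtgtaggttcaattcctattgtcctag
mt-Tp: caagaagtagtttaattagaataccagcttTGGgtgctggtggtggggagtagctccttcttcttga

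The libraries held between 22028363 and 26471569 reads on the genes with deposited scaled values, and 100% of these values gave whole reads. The expression of Tcf3, the gene for E2A, served as the check of induction and stood at 39.1±1.8 FPKM (mean±s.d., n=3) without dox, 110.1±5.55 after 18 h and 102±7.57 after 24 h, and reads of the transgene can be counted on it. The ESC identity of the libraries was read from 8 ESC markers, whose summed expression ranged from 1299 to 1975 FPKM without dox, from 1018 to 1614 after 18 h and from 974 to 1586 after 24 h. The sum of 6 fibroblast markers, which would mark feeder cells, ranged from 6.99 to 14.6 FPKM without dox, from 6.02 to 10.3 after 18 h and from 6.08 to 10.7 after 24 h, and of these markers Thy1 was lower at 24 h by the adjusted p alone (2.08±0.322 and 1.21±0.185 FPKM; log2 fold-change -0.74; limma adjusted p = 0.0494). In the blocked fit Thy1 was also lower at 18 h (-0.75; adjusted p = 0.0573, or 0.0232 with the block) and Dcn at 24 h (-0.57; adjusted p = 0.251, or 0.0389 with the block). At 24 h Col1a1 (0.10), Col1a2 (-0.10) and Col3a1 (0.21) passed in neither fit, and Postn, which averaged below 0.1 FPKM, was not tested. The sum of 6 primitive endoderm markers stayed between 4.07 and 5.92 FPKM. The 5 early neural markers summed to between 29.4 and 43.7 FPKM at 0 h and to between 36.9 and 60.2 after dox, of which Nes gave most, and Sox1 and the ESC gene Tdgf1 were the markers called, with log2 fold-changes of 2.5 and -1.46 at 24 h. Tdgf1 was called at 18 h as well (log2 fold-change -1.27; limma adjusted p = 0.000295). Sox1 was also called at 18 h once replicates were blocked (log2 fold-change 1.39; limma adjusted p = 0.0541, or 0.00754 in the blocked fit), and Nes was higher in the blocked fit at both times (0.51 and 0.38; adjusted p = 0.165 and 0.27, or 0.00247 and 0.00543 with the block). Pax6 (-0.26 at 18 h and 0.00 at 24 h) and Hes5 (0.38 and 0.73) passed in neither fit. Zic1 averaged below 0.1 FPKM and was not tested. The ESC markers did not all move one way. By the adjusted p alone Pou5f1 was lower at 24 h (log2 fold-change -0.58; limma adjusted p = 0.022) and Nanog was higher (0.86; adjusted p = 0.00735), and in the blocked fit Klf4 was also higher (0.38; adjusted p = 0.297, or 0.0101 with the block) and Dppa5a, which had the highest FPKM of the list, lower (-0.35; adjusted p = 0.537, or 0.00338 with the block). At 18 h Pou5f1 (-0.35; adjusted p = 0.126, or 0.00149 with the block) and Dppa5a (-0.35; 0.558, or 0.00424) were lower in the blocked fit. Nanog (0.48; 0.068, or 0.000902) and Klf4 (0.39; 0.318, or 0.0118) were higher in that fit at 18 h. The part of these marker changes in the changes described here was not tested.

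All classes of mitochondrial RNA took a smaller share of the reads after addition of dox, and the coding genes remained closest to their share at 0 h. The 37 genes together took 1.81%, 1.79% and 1.75% of the reads in replicates 1, 2 and 3 at 0 h. They took 1.56%, 1.59% and 1.43% at 18 h and 1.56%, 1.18% and 1.5% at 24 h. Every library with dox was below every 0 h library, and replicate 2 at 24 h was the lowest. These values are shares of the reads of a bulk sample. Less mitochondrial RNA per cell, more of other RNA per cell and fewer cells rich in mitochondrial RNA cannot be told apart.

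The 13 coding genes summed to 13292±263 FPKM without dox (mean±s.d., n=3), 11453±759 after 18 h and 10438±1590 after 24 h. Relative to 0 h this class stood at 86.2% at 18 h and at 78.5% at 24 h, a value that was 85.2% without replicate 2 of 24 h. The rRNA genes summed to 731.5±115, 499.6±44.0 and 464.5±57.2 FPKM, or 68.3% and 63.5% of 0 h. The 22 tRNA genes summed to 243.1±42.9, 103.3±4.55 and 100.4±26.2 FPKM, or 42.5% and 41.3%. In reads the tRNA class amounted to 373, 485 and 321 without dox, to 156, 185 and 174 after 18 h and to 229, 148 and 163 after 24 h. For each class, all libraries with dox lay below all 0 h libraries.

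**Figure D1:**
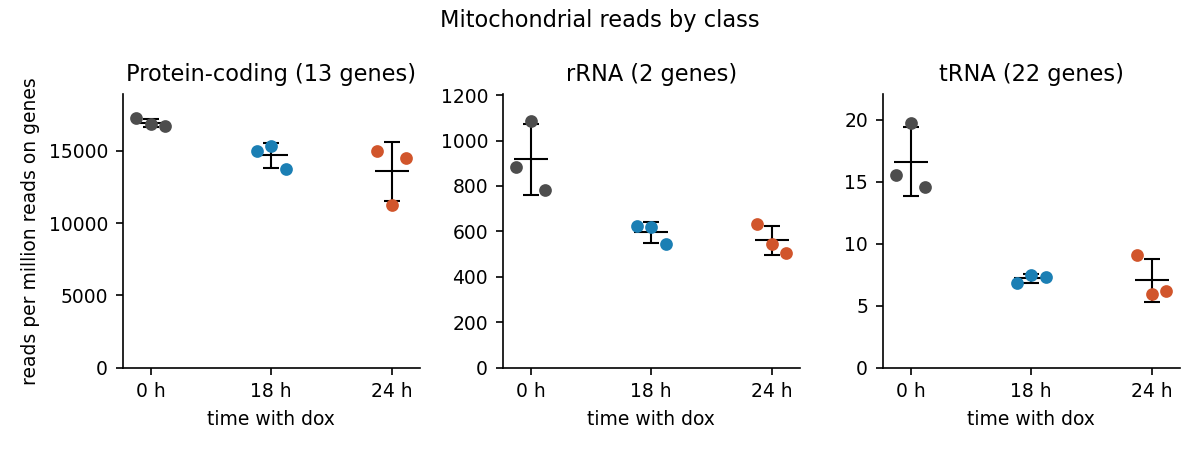
Reads on the 13 protein-coding, 2 rRNA and 22 tRNA genes of the mitochondrial genome, as RPM, reads scaled to the reads on genes of the library (y axis, from 0), at 0, 18 and 24 h of dox (x axis). Points are libraries, the wide bar is the mean and the whiskers are the s.d. (n=3). In each panel all libraries with dox lie below all 0 h libraries.

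Single genes were tested with limma on log2(FPKM+0.1) across the 17951 genes that averaged 0.1 FPKM or more, of which 27 were mitochondrial, with Benjamini–Hochberg adjustment over all genes tested. To be called, a gene needed an adjusted p no higher than 0.05 and a log2 fold-change of 1 or more in size. Each log2 fold-change is given with its standard error (s.e.). The comparisons of 18 h and 24 h with 0 h share the 0 h libraries. At 18 h, 5 of the 27 mitochondrial genes were called downregulated (mt-Rnr2, mt-Tl1, mt-Tt, mt-Tv and mt-Tw), which is 18.5% against 0.724% of all genes tested. Among these, mt-Tv had at most 2 reads in a library and passed the filter only through its 0 h libraries, and without it and the other sparse genes 4 of the 15 genes with a mean of at least 10 reads were called (26.7%, against 0.729% of all genes with as many reads). None of the 27 was called upregulated, against 1.33% of all genes. Of the 15 genes, mt-Tt reached the mean of 10 reads only through its libraries without dox. No library with dox held more than 6 of its reads. All shares and medians given for the 15 genes include mt-Tt. At 24 h, 5 were called downregulated (mt-Rnr2, mt-Tl1, mt-Tq, mt-Tt and mt-Tw), again 18.5%, against 0.836% of all genes, or 5 of the 15 genes with a mean of at least 10 reads (33.3%, against 0.736% of all genes with as many reads), and none upregulated, against 2.07%.

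With the adjusted p alone, 8 of the 27 were lower at 18 h (29.6%), against 3.72% of all genes, through the addition of mt-Nd5, mt-Tp and mt-Tq, and 7 of these were among the 15 genes with a mean of at least 10 reads (46.7%, against 4.31% of all genes with as many reads). The single gene that was higher at 18 h by this rule was mt-Tm, or 3.7% of those tested against 4.27% of all genes. At 24 h, 7 were lower (25.9%), against 5.11% of all genes, with mt-Nd5 and mt-Tp added to the called genes, all with a mean of at least 10 reads (46.7%, against 5.84%), and none was higher, against 6.52%. With the replicate number as a block, 10 were lower at 18 h (37%), against 10.7% of all genes, through the addition of mt-Co1 and mt-Rnr1, and mt-Tm was higher, against 10.8%. Without mt-Tv and the other sparse genes 9 of 15 were lower (60%, against 12.4%). At 24 h with the block, 12 were lower at 24 h (44.4%), against 12.5% of all genes, and mt-Tm was higher, against 13.6%. The genes gained with the block at 24 h in the lower direction were mt-Co1, mt-Nd1, mt-Nd4, mt-Rnr1 and mt-Tv, and without the sparse genes 11 of 15 were lower (73.3%, against 14.5%). The median log2 fold-change of the 15 genes with a mean of at least 10 reads was -0.35 at 18 h and -0.44 at 24 h, and that of all genes tested was 0.00 in both comparisons.

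**Figure D2:**
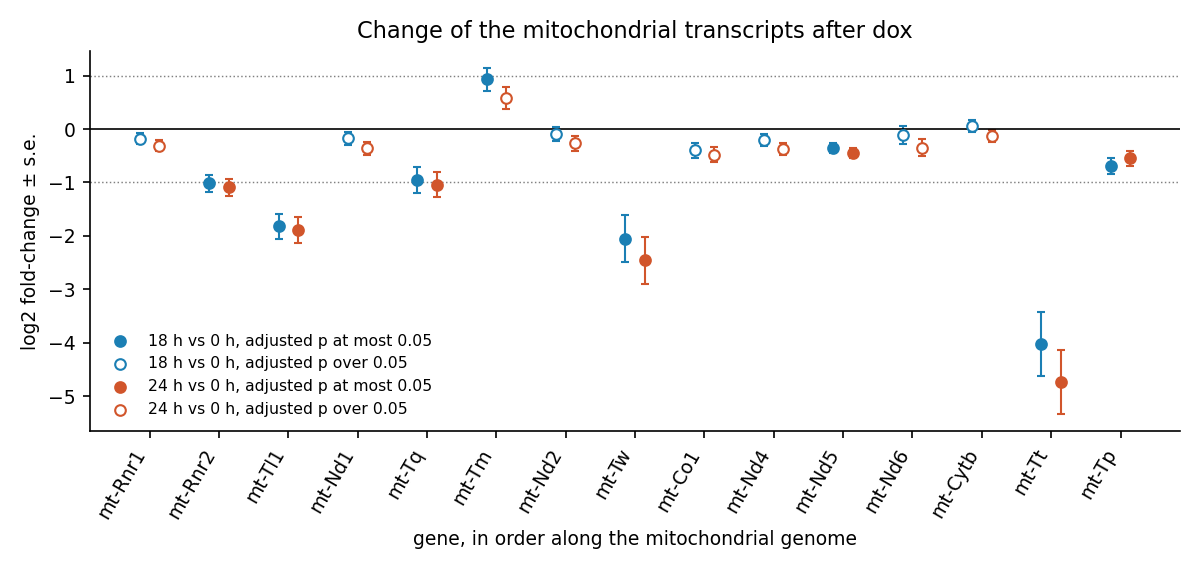
Log2 fold-change ± s.e. (y axis) at 18 h and 24 h compared with 0 h, by limma on log2(FPKM+0.1), for the 15 mitochondrial genes with a mean of at least 10 reads, in genome order (x axis). Filled points have an adjusted p of at most 0.05 and dotted lines mark -1 and 1. The lowest values are those of mt-Tt, and the values above 0 are those of mt-Tm at both times and of mt-Cytb at 18 h.

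Of the rRNAs of the mitochondrial ribosome, the large rRNA mt-Rnr2 (ENSMUSG00000064339, chrM:1094-2675) was downregulated at both times. The small rRNA mt-Rnr1 (chrM:70-1024), which precedes it on the same strand, passed neither threshold in the fit without the block. Expression of mt-Rnr2 was 336.3, 472.9 and 305.1 FPKM without dox, 191.5, 185.7 and 165.9 after 18 h and 201.5, 160.1 and 156 after 24 h. No library with dox reached the lowest 0 h library, and replicate 2 at 0 h was well above the others of its group. The log2 fold-change was -1.01 at 18 h (s.e. 0.159; limma adjusted p = 0.00761) and -1.09 at 24 h (s.e. 0.159; adjusted p = 0.00452). Without replicate 2 of 0 h it was -0.83 and -0.90, and without replicate 3 of 18 h it was -0.95 at 18 h, all past the adjusted p (at most 0.038) but under the minimum fold-change. It was also under this minimum after quantile normalization (-0.92 and -0.96), and at 18 h with nuclear genes scaled to a common sum (-0.94).

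Expression of mt-Rnr1 was 373.4, 382.9 and 324 FPKM without dox, 337.9, 334.6 and 283.2 after 18 h and 325.1, 292.9 and 257.8 after 24 h. These groups overlapped. The log2 fold-change of mt-Rnr1 was -0.18 at 18 h (limma adjusted p = 0.337, or 0.0277 in the blocked fit) and -0.31 at 24 h (adjusted p = 0.0991, or 0.00348 in the blocked fit). After quantile normalization it was -0.05 at 18 h and -0.17 at 24 h, and without replicate 3 of 18 h it was -0.09 at 18 h. Without the block, mt-Rnr1 at 24 h had an adjusted p of 0.0529 by edgeR and 0.0331 by DESeq2. As a description within each library, the ratio of mt-Rnr2 to mt-Rnr1 in FPKM was 0.901, 1.23 and 0.942 without dox, 0.567, 0.555 and 0.586 after 18 h and 0.62, 0.547 and 0.605 after 24 h. The ratio separated all libraries with dox from all 0 h libraries, and it does not depend on how the libraries were scaled. The rRNAs enter these libraries through their poly(A) selection, so the values do not give the amount of ribosome.

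The tRNA for threonine, mt-Tt (ENSMUSG00000064371), whose gene directly follows mt-Cytb, had the largest decrease of the 15 mitochondrial genes with a mean of at least 10 reads. It had 37, 70 and 43 reads in replicates 1, 2 and 3 without dox, 4, 3 and 2 after 18 h and 6, 1 and 1 after 24 h. No library with dox came near the 0 h libraries. Scaled to library size, the reads at 18 h were 5.95% of those at 0 h (95% exact interval 2.67 to 11.6%, counting error only) and at 24 h 4.91% (2.08 to 9.93%). In the limma fit the log2 fold-change was -4.03 at 18 h (s.e. 0.600; adjusted p = 0.00597) and -4.73 at 24 h (s.e. 0.600; adjusted p = 0.00229). The size of the log2 fold-change of mt-Tt depends on the pseudocount and on single libraries, since 4 of the 6 libraries with dox lie at or below the floor of 3 reads. At 24 h it was -3.84 with a pseudocount of 1, -5.54 without replicate 1 of 24 h and -4.33 by edgeR. It was called in 20 of 21 alternative fits at 18 h, the exception being no filter on FPKM (adjusted p = 0.066), and in all 21 at 24 h. Set against mt-Cytb, the gene directly upstream, mt-Tt had 0.543, 1.01 and 0.712 reads per 1000 reads of mt-Cytb without dox, 0.0569, 0.0391 and 0.0301 after 18 h and 0.0826, 0.0179 and 0.0132 after 24 h.

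The leucine tRNA mt-Tl1 (ENSMUSG00000064340) lies directly between mt-Rnr2 and mt-Nd1. It had 96, 115 and 89 reads without dox, 28, 30 and 29 after 18 h and 43, 19 and 33 after 24 h. The groups with and without dox did not overlap, and the 18 h libraries were close to each other. The log2 fold-change was -1.82 at 18 h (s.e. 0.235; limma adjusted p = 0.00331) and -1.89 at 24 h (s.e. 0.235; adjusted p = 0.00218), and mt-Tl1 was called in all 21 alternative fits of each comparison. Relative to its neighbours it was lower too, with between 6.4 and 8.48 reads per 1000 reads of mt-Rnr2 without dox, between 4.04 and 4.57 at 18 h and between 2.94 and 5.31 at 24 h. Relative to mt-Nd1 the corresponding values were 1.45 to 1.59, 0.468 to 0.515 and 0.389 to 0.653 per 1000 reads.

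The tryptophan tRNA mt-Tw (ENSMUSG00000064346) follows mt-Nd2, with which its annotated ends overlap, so a read at that junction could be counted on either gene. The genes mt-Tt, mt-Tl1 and mt-Tm abut their neighbours without a gap. How reads that span such a junction were counted is not given in the sources used here. The same limit therefore holds for the reads of these tRNA genes and for their ratios to neighbours. Reads of mt-Tw numbered 70, 109 and 64 without dox, 19, 22 and 18 after 18 h and 26, 22 and 7 after 24 h. All libraries with dox were below all 0 h libraries, and replicate 3 at 24 h was the lowest. The log2 fold-change was -2.05 at 18 h (s.e. 0.435; limma adjusted p = 0.0239) and -2.46 at 24 h (s.e. 0.435; adjusted p = 0.00952). Leaving out any single library of 0 h or 18 h raised the adjusted p at 18 h above 0.05, to at most 0.0849, with log2 fold-changes between -2.15 and -1.84. At 24 h the adjusted p of mt-Tw stayed at or below 0.0295 with each library left out, but the log2 fold-change was -1.85 without replicate 3 of 24 h, and with no filter on FPKM the call was lost (adjusted p = 0.0788).

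**Figure D3:**
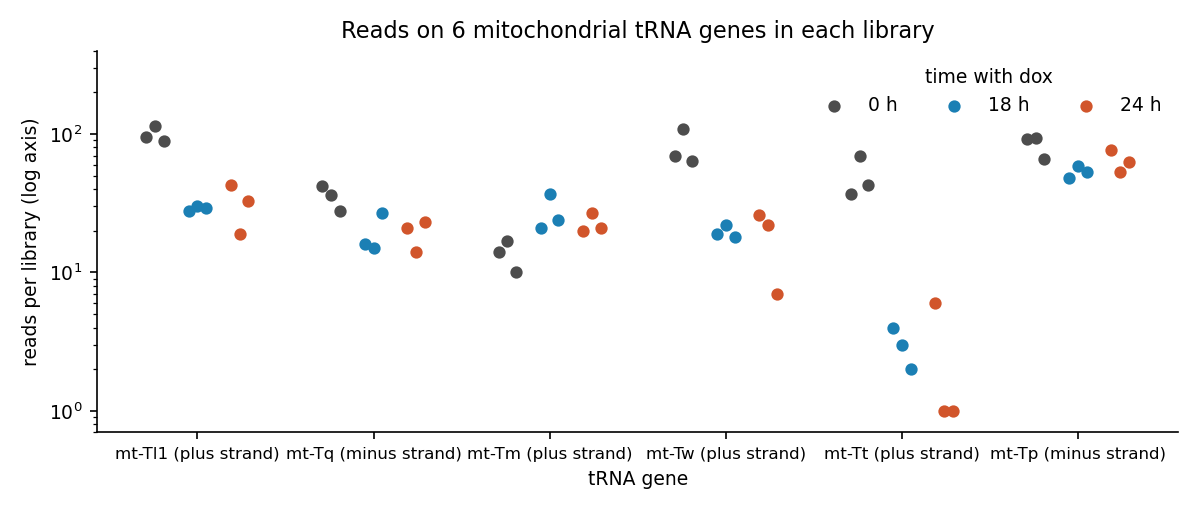
Reads in each library (y axis, log scale) on the 6 mitochondrial tRNA genes with a mean of at least 10 reads (x axis, with the strand of the gene). Points are libraries at 0, 18 and 24 h of dox. Reads on mt-Tt lie between 37 and 70 at 0 h and between 1 and 6 with dox, whereas those on mt-Tm lie higher with dox than at 0 h.

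The glutamine and proline tRNAs, both on the minus strand, had smaller log2 fold-changes, and that of proline did not reach the minimum. The glutamine tRNA mt-Tq had 42, 36 and 28 reads without dox, 16, 15 and 27 after 18 h and 21, 14 and 23 after 24 h. After scaling to FPKM all libraries with dox were below all 0 h libraries. Its log2 fold-change was -0.95 at 18 h (s.e. 0.240; limma adjusted p = 0.0448) and -1.04 at 24 h (s.e. 0.240; adjusted p = 0.0259). The call at 24 h was lost without replicate 1 or 2 of 0 h and without replicate 2 or 3 of 24 h, with an adjusted p of at most 0.0892, and with no filter on FPKM (adjusted p = 0.149). The log2 fold-change of mt-Tq at 24 h was under the minimum with a pseudocount of 1 (-0.98) and with nuclear genes scaled to a common sum (-0.96). At 18 h the adjusted p of mt-Tq was 0.0671 by edgeR and 0.0972 by DESeq2, and it was over 0.05 with no filter on FPKM (0.225), with only the time points compared (0.0645) and, up to 0.144, without any single library of 0 h, without replicate 1 or 2 of 18 h and without replicate 1 or 3 of 24 h.

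The proline tRNA mt-Tp had 92, 94 and 66 reads without dox, 48, 59 and 53 after 18 h and 77, 53 and 63 after 24 h. Its log2 fold-change was -0.69 at 18 h (s.e. 0.142; limma adjusted p = 0.0219) and -0.55 at 24 h (s.e. 0.142; adjusted p = 0.0392), below the minimum fold-change. The adjusted p of mt-Tp at 18 h was over 0.05 with no filter on FPKM (0.13) and, up to 0.077, without replicate 1 or 2 of 0 h or any library of 18 h, and at 24 h mt-Tp passed in 9 of 21 alternative fits, with an adjusted p of 0.0749 by edgeR and 0.0869 by DESeq2. The methionine tRNA mt-Tm, which also starts mitochondrial translation, went the other way, with 14, 17 and 10 reads without dox, 21, 37 and 24 after 18 h and 20, 27 and 21 after 24 h. All libraries with dox were above all 0 h libraries. The log2 fold-change of mt-Tm was 0.93 at 18 h (s.e. 0.213; limma adjusted p = 0.0312) and 0.58 at 24 h (s.e. 0.213; adjusted p = 0.114). At 24 h mt-Tm passed only in the blocked limma fit (adjusted p = 0.00509), 1 of 21 alternatives, and not by edgeR with the block (0.139). At 18 h the adjusted p of mt-Tm was 0.0676 by edgeR, 0.126 by DESeq2, 0.172 with no filter on FPKM and 0.059 with only the time points compared, and up to 0.0928 without replicate 1 or 3 of 0 h or replicate 2 or 3 of 18 h.

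The other 16 tRNA genes had a mean below 10 reads per library. Of these, mt-Ta had 2 to 14 reads, mt-Tc 2 to 12 and mt-Ti 1 to 7, and the groups overlapped for each. The valine tRNA mt-Tv passed both thresholds at 18 h, but it had 2, 1 and 1 reads without dox, none after 18 h and 1 read in 1 library at 24 h. All of these lie at or below a floor of 3 reads, so no fold is given for mt-Tv, and the count of downregulated genes at 18 h that lie above the floor is 4. Among all 37 genes, 15 had at most 3 reads in every library, and 5 tRNA genes (mt-Tf, mt-Ts1, mt-Tk, mt-Tg and mt-Tr) had none, which allows up to 0.113 to 0.136 RPM (reads scaled to the reads on genes) in a library. Summed over the strand, the 14 plus-strand tRNA genes had 10.7 RPM without dox, 3.52 after 18 h and 3.14 after 24 h. The 8 minus-strand tRNA genes had 6.02, 3.71 and 3.90. The libraries were strand-specific, but whether strand was used in the counting is not given in the sources used here, so reads of the opposite precursor may be included on mt-Tq and mt-Tp.

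Among the protein-coding genes, 7 were well covered, and of these mt-Nd5 was lower at both times by the adjusted p alone in limma without the block. By edgeR and DESeq2 without the block mt-Co1 also passed at both times, and mt-Nd1 and mt-Nd4 at 24 h. At 0 h their levels per length fell in the order mt-Co1 (5550±339 FPKM, mean±s.d., n=3), mt-Nd1 (2957±300), mt-Cytb (2481±46.7), mt-Nd2 (1078±177), mt-Nd4 (550.2±10.1), mt-Nd5 (546.6±32.6) and mt-Nd6 (127.2±5.59). The neighbours mt-Nd4 and mt-Nd5 did not differ beyond their spread, and at 24 h mt-Nd1 (2313±362) and mt-Cytb (2281±318) did not either. The place of mt-Co1 and mt-Nd4 in this order is uncertain, since part of their sequence, 63.6% of mt-Nd4, is shared with an annotated nuclear copy. None of the 7 reached the minimum fold-change in either comparison. Their median log2 fold-change was -0.17 at 18 h, with a range from -0.40 to 0.06, and -0.36 after 24 h, with a range from -0.48 to -0.13. These values depend on the scaling. After quantile normalization those at 18 h lay between -0.26 (mt-Nd5) and 0.11 (mt-Cytb), with mt-Co1 at -0.07, mt-Nd1 at -0.04, mt-Nd4 at -0.08 and mt-Nd6 at -0.02. At 24 h mt-Nd5 was then at -0.33, mt-Nd4 at -0.25, mt-Nd6 at -0.22, mt-Co1 at -0.21, mt-Nd1 at -0.14 and mt-Nd2 at -0.13.

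The core subunit of complex IV, mt-Co1 (chrM:5328-6872), had the highest FPKM of these 7 coding genes. It stood at 5768, 5159 and 5723 FPKM without dox, 4411, 4355 and 3864 after 18 h and 4445, 3168 and 4436 after 24 h. The groups with and without dox did not overlap. The log2 fold-change of mt-Co1 was -0.40 at 18 h (s.e. 0.139; limma adjusted p = 0.114, or 0.0456 in the blocked fit) and -0.48 at 24 h (s.e. 0.139; adjusted p = 0.0545, or 0.0213 in the blocked fit). Its adjusted p was 0.0424 and 0.0171 by edgeR and 0.00979 and 0.00101 by DESeq2. After quantile normalization the log2 fold-change of mt-Co1 was -0.07 at 18 h and -0.21 at 24 h, without passing the adjusted p.

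Of the complex I subunits, mt-Nd5 (chrM:11742-13565) passed the adjusted p at both times without the block. Its expression was 537.9, 582.7 and 519.2 FPKM without dox, 423.1, 448.1 and 410.8 after 18 h and 452.8, 352.6 and 404.1 after 24 h, with no overlap between libraries with and without dox. The log2 fold-change was -0.35 at 18 h (s.e. 0.0925; limma adjusted p = 0.0488) and -0.44 at 24 h (s.e. 0.0925; adjusted p = 0.0178). At 18 h mt-Nd5 passed in 10 of 21 alternative fits. It did not with 1 of the 6 libraries of that comparison or replicate 3 of 24 h left out (adjusted p at most 0.156), with a pseudocount of 1 (0.053), after quantile normalization (log2 fold-change -0.26), with nuclear genes scaled to a common sum (-0.28) or with no filter (adjusted p = 0.214). At 24 h mt-Nd5 passed in 17 of 21, and its adjusted p rose to 0.102 with no filter and to at most 0.0608 without replicate 1 of 0 h, replicate 2 of 24 h or replicate 3 of 24 h.

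The subunit gene mt-Nd4 had 540.3, 560.5 and 549.6 FPKM without dox, 481.6, 522.9 and 437.9 after 18 h and 467.3, 356.6 and 459.8 after 24 h, again without overlap. Its log2 fold-change was -0.20 at 18 h (limma adjusted p = 0.287) and -0.37 at 24 h (adjusted p = 0.0546, or 0.0471 in the blocked fit), and without the block mt-Nd4 passed at 24 h by edgeR (0.0233) and DESeq2 (0.00461). For mt-Nd1 the values were 2910, 3278 and 2683 FPKM without dox, 2722, 2689 and 2431 after 18 h and 2709, 2000 and 2229 after 24 h. These groups overlapped, and the log2 fold-change at 24 h was -0.36 (limma adjusted p = 0.0933, or 0.0446 in the blocked fit, 0.0378 by edgeR and 0.0129 by DESeq2). This log2 fold-change of mt-Nd1 was -0.14 after quantile normalization and -0.26 without replicate 2 of 24 h, without passing the adjusted p. Without replicate 1 of 24 h, mt-Nd1 (log2 fold-change -0.48) and mt-Nd4 (-0.44) passed the adjusted p at 24 h in limma too.

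The values of mt-Nd2 were 988.3, 1282 and 963.7 FPKM without dox, 996.1, 1097 and 934.5 after 18 h and 1038, 791.2 and 849.7 after 24 h. The log2 fold-change of mt-Nd2 was -0.09 at 18 h (limma adjusted p = 0.73), which became 0.01 after quantile normalization, and -0.27 at 24 h (adjusted p = 0.228). The minus-strand gene mt-Nd6 had 121, 128.8 and 131.9 FPKM without dox, 118.8, 135.4 and 100.8 after 18 h and 131.5, 87.3 and 86.8 after 24 h. Its groups overlapped, its log2 fold-change was -0.11 at 18 h (limma adjusted p = 0.699) and -0.35 at 24 h (adjusted p = 0.193), and its annotated end overlaps that of mt-Nd5 on the other strand. Without replicate 1 of 24 h, the log2 fold-change of mt-Nd6 at 24 h was -0.55 and passed the adjusted p (0.0238).

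The complex III gene mt-Cytb (chrM:14145-15288) had 2497, 2518 and 2429 FPKM without dox, 2689, 2690 and 2399 after 18 h and 2500, 1916 and 2427 after 24 h. Its groups overlapped at both times. The log2 fold-change was 0.06 at 18 h (s.e. 0.109; limma adjusted p = 0.762) and -0.13 at 24 h (s.e. 0.109; adjusted p = 0.469), next to the decrease of mt-Tt, the gene that follows it. Replicate 2 at 24 h was the lowest of all 9 libraries for mt-Co1, mt-Cytb, mt-Nd1, mt-Nd2, mt-Nd4 and mt-Nd5.

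The remaining 6 coding genes were almost without reads. The genes mt-Co2, mt-Co3 (complex IV), mt-Atp6, mt-Atp8 (ATP synthase), mt-Nd3 and mt-Nd4l (complex I) had between 4 and 62 reads each over the 9 libraries together, whereas the other 7 coding genes had between 13135 and 1550095. All 6 lie, together with 5 tRNA genes that had 0 or 1 read, in 1 stretch of the mitochondrial genome from chrM:6390 to chrM:11042 (4653 nt). This stretch is matched by 7 annotated pseudogenes in a row on the minus strand of chromosome 1 (chr1:24611535-24616197, GRCm38). In annotated transcripts, mt-Co2, mt-Atp6, mt-Co3, mt-Nd3 and mt-Nd4l were identical to their copies over every aligned base, from 98.3% to 99.9% of the gene. The start of mt-Co2 (chrM:7013-7072) and that of its copy Gm28661 (chr1:24615506-24615565, minus strand) are shown to make this identity visible.
mt-Co2: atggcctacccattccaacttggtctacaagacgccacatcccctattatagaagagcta
Gm28661: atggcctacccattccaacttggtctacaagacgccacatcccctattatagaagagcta

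The annotated copy ends inside mt-Nd4, whose first 876 bases are identical to Gm28439. Whether chromosome 1 matches mt-Nd4 beyond this annotation was not checked. The bases around this end in mt-Nd4 (chrM:11013-11072) are shown with those beyond the annotated copy in capitals.
mt-Nd4: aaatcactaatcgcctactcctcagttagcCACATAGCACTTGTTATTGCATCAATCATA

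Of all words of 50 nt in each gene, 100% for mt-Co2, 99.9% for mt-Co3, 99.5% for mt-Atp6, 98.8% for mt-Nd4l and 98% for mt-Nd3 also occurred in another annotated transcript. The share was 62.2% for mt-Nd4, 51.1% for mt-Co1, 8.19% for mt-Nd2 and 7.61% for mt-Nd5, and 0% for mt-Nd1, mt-Nd6 and mt-Cytb. For mt-Atp8 it was also 0%. An annotated pseudogene covers it only where its end overlaps mt-Atp6 (chrM:7927-7969), which is shorter than a word of 50 nt. The share was also 0% for the 5 tRNA genes in the stretch. For the rRNAs it was 0% (mt-Rnr1) and 1.04% (mt-Rnr2), so the change of these genes concerns sequence that is almost all particular to the mitochondrial genome among annotated transcripts. The copies themselves were listed at no more than 3.62 FPKM in any library. How reads with several equal alignments were counted is not given in the sources used here, and the part of such reads in the low values was not tested. The levels of these 6 genes are therefore not read as expression, those of mt-Co1 and mt-Nd4 are uncertain in the copied part, and no fold is given for mt-Co2, mt-Atp6, mt-Co3, mt-Nd3, mt-Nd4l and mt-Atp8, of which mt-Nd4l and mt-Atp8 lay below the filter and the other 4 did not pass the adjusted p.

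**Figure D4:**
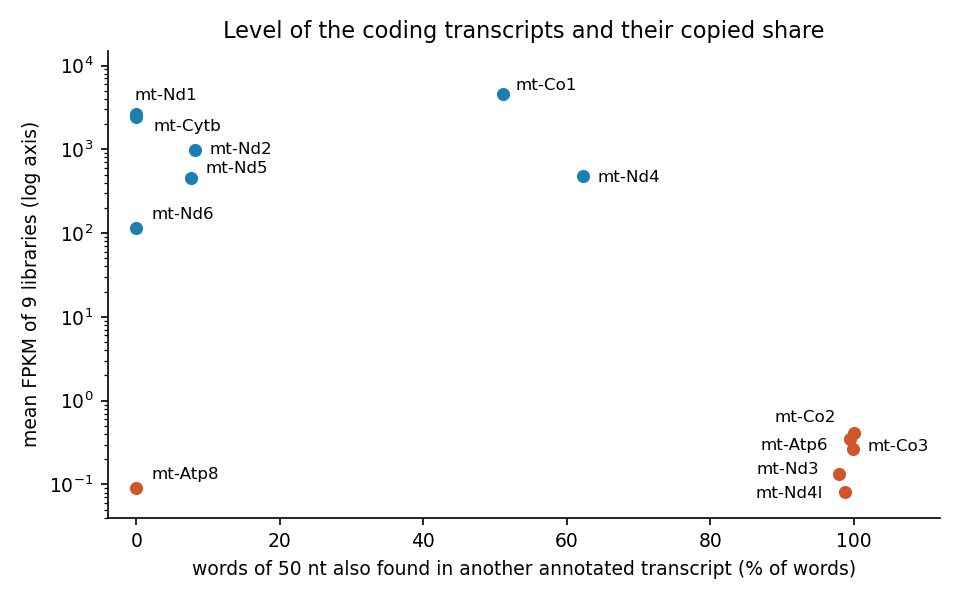
Mean FPKM over the 9 libraries (y axis, log scale) of the 13 mitochondrial coding genes against the percentage of their 50-nt words that also occur in another annotated transcript (x axis). The 5 genes with more than 90% copied words, and mt-Atp8, which lies among them in the genome, are drawn in orange and are at or below 0.414 FPKM.

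Between 24 h and 18 h, no mitochondrial gene was called in either direction, against 0.00557% of all genes tested downregulated and 0.0167% upregulated. Of the 27 tested, 0 had an unadjusted p under 0.05 by limma, against 5.59% of all genes tested, and edgeR and DESeq2 called 0 as well. With the replicate block, 2 of 27 had an unadjusted p under 0.05 by limma (mt-Rnr1 and mt-Tm; 7.41%, against 12.3% of all genes tested). By edgeR with the block these were 4 of 16 (mt-Rnr1, mt-Cytb, mt-Nd1 and mt-Nd4; 25%, against 15.3%), all lower at 24 h, and none passed the adjusted p (at least 0.159). The log2 fold-changes of the 15 genes with a mean of at least 10 reads lay between -0.70 (mt-Tt) and 0.14 (mt-Tp), with a median of -0.17. The 7 coding genes lay between -0.23 and -0.08. For each of these 15 genes the groups of 18 h and 24 h overlapped, whereas they did not for 12.9% of all genes tested.

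Of the nuclear genes that act with these transcripts, none was called, against 0.724% of all genes tested downregulated and 1.33% upregulated at 18 h, and 0.836% and 2.07% at 24 h. Lists of nuclear genes for the respiratory complexes, mitochondrial transcription, RNA processing, the mitochondrial ribosome and translation, chaperones and proteases, and regulators of mitochondrial biogenesis held 239 genes with a value, of which 237 were tested. With the adjusted p alone, 7 were lower (2.95%, against 3.72% of all genes tested) and 2 higher (0.844%, against 4.27%) at 18 h. At 24 h, 29 were lower (12.2%, against 5.11%) and 2 higher (0.844%, against 6.52%). In the blocked fit, 43 were lower (18.1%, against 10.7%) and 5 higher (2.11%, against 10.8%) at 18 h, and 92 were lower (38.8%, against 12.5%) and 3 higher (1.27%, against 13.6%) at 24 h. The median log2 fold-change was -0.09 at 18 h and -0.13 at 24 h. By list at 18 h, without the block, 1 of 76 respiratory subunits (1.32%), 3 of 75 proteins of the mitochondrial ribosome (4%), 2 of 30 genes of RNA processing (6.67%) and 1 of 16 translation factors (6.25%) were lower, against 3.72% of all genes tested, and 0 of the genes of transcription and replication, chaperones and proteases, and biogenesis. With the block at 18 h, the lower genes numbered 15 (19.7%), 14 (18.7%), 4 (13.3%) and 5 (31.2%) in the first 4 of these lists and 5 of 16 chaperones and proteases (31.2%), against 10.7% of all genes.

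The 76 nuclear subunits of complexes I to V had a median of -0.11 at 24 h, and 4 were lower by the adjusted p alone (5.26%, against 5.11% of all genes tested), or 26 with the block (34.2%, against 12.5%). Their log2 fold-changes ranged from -0.48 to 0.10. Among the most abundant of them were Atp5b of ATP synthase (496±13.5 FPKM at 0 h and 471±23.0 at 24 h), Atp5a1 (444±55.5 and 473±45.2), Cox8a (452±29.8 and 410±22.6) and Cox4i1 of complex IV (276±10.1 and 253±14.5). Of complex I, Ndufa2 (138±5.78 and 131±13.4 FPKM) and Ndufb9 (130±12.8 and 109±11.2) led. Of complex II these were Sdhd (107±4.98 and 108±5.88) and Sdha (70.4±1.04 and 68±2.91), and of complex III they were Uqcr10 (203±10.3 and 193±8.85) and Cyc1 (173±11.9 and 155±21.1). Of these 10, none passed the adjusted p at 24 h without the block, and Cyc1, Cox8a, Cox4i1 and Ndufb9 passed it with the block.

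**Figure D5:**
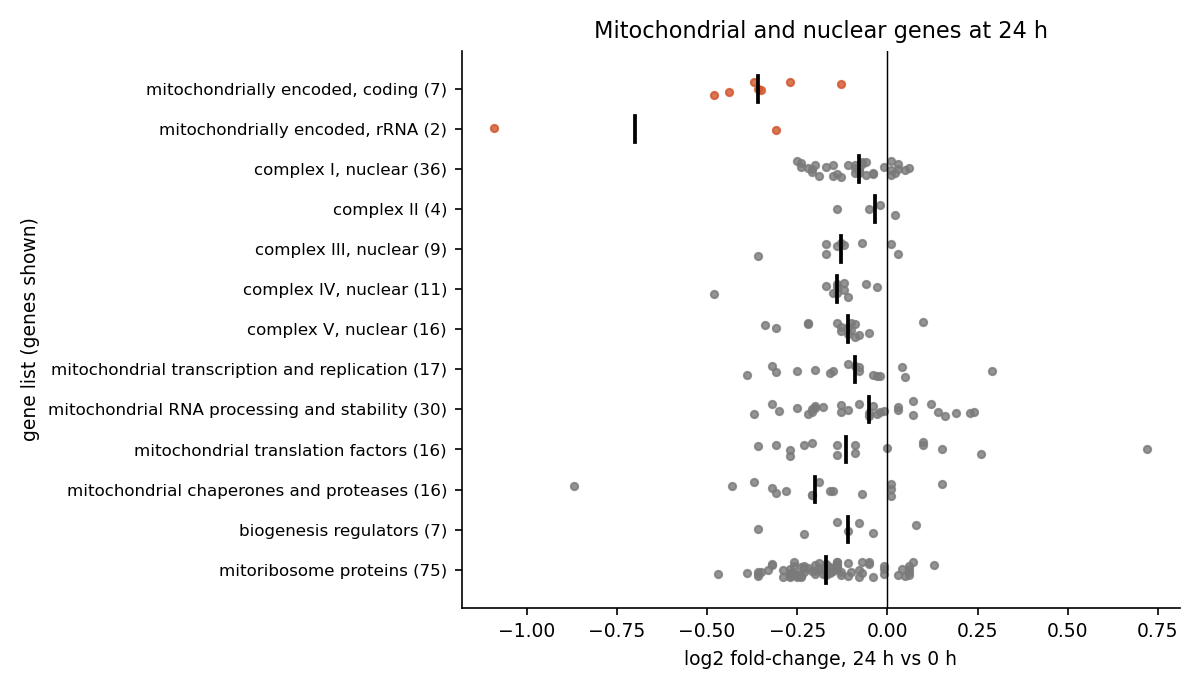
Log2 fold-change at 24 h compared with 0 h (x axis) for the 7 well covered mitochondrial coding genes and the 2 rRNA genes (orange) and for nuclear genes by list (grey, y axis, with the number of genes). Points are genes and black bars are medians. The nuclear genes of all lists lie between -0.87 and 0.72.

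The proteins of the mitochondrial ribosome, with which mt-Rnr1 and mt-Rnr2 assemble, had a median of -0.17 over 75 genes at 24 h, and 14 were lower by the adjusted p alone (18.7%, against 5.11% of all genes tested), or 40 with the block (53.3%, against 12.5%). Of the most abundant of them, Mrpl12 went from 124±4.27 to 96.4±7.49 FPKM (log2 fold-change -0.36; limma adjusted p = 0.0112) and Mrpl42 from 150±13.5 to 134±11.3 (log2 fold-change -0.16; adjusted p = 0.267, or 0.0386 in the blocked fit). Of the 30 genes of mitochondrial RNA processing and stability, 4 were lower at 24 h by the adjusted p alone (13.3%, against 5.11% of all genes tested), or 7 with the block (23.3%, against 12.5%), and none higher, with a median of -0.05. The oligoribonuclease Rexo2 (log2 fold-change -0.20; adjusted p = 0.0346) and Tbrg4, a FASTK family RNA-binding protein (-0.30; adjusted p = 0.0227), were among these, and they lost this pass in 11 (Rexo2) and 6 (Tbrg4) of 21 alternative fits.

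Of 17 genes of transcription and replication, the DNA polymerase gene Polg was higher at 24 h (log2 fold-change 0.29; limma adjusted p = 0.0423; 1 of 17 or 5.88%, against 6.52% of all genes tested), a pass lost in 11 of 21 alternative fits, 1 gene was lower (5.88%, against 5.11% of all genes tested), or 3 with the block (17.6%, against 12.5%), and Peo1, the gene for the Twinkle helicase, went from 26.1±2.5 to 26.7±0.564 FPKM. Among 16 chaperones and proteases 4 were lower by the adjusted p alone (25%, against 5.11%), or 9 with the block (56.2%, against 12.5%), among them Hspa9 (log2 fold-change -0.37; adjusted p = 0.0199, a pass lost in 4 of 21 alternative fits), while Hspd1 had 446±94.5 FPKM at 0 h and 445±36.4 at 24 h. Of 16 translation factors, 2 were lower (12.5%, against 5.11%) and 1 was higher (6.25%, against 6.52%), and with the block 6 were lower (37.5%, against 12.5%) and 2 higher (12.5%, against 13.6%). The elongation factors Tufm (56.1±3.27 and 50.7±1.09 FPKM) and Gfm1 (23.7±2.88 and 23.5±0.667) did not pass. None of the 7 tested regulators of biogenesis passed without the block and 1 was lower with it (14.3%, against 12.5%), and the most abundant were Pprc1 (45.8±6.13 and 44.4±1.41 FPKM) and Gabpa (19.9±1.97 and 18.8±1.25).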

How the data were processed

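The authors made stranded poly(A)-selected libraries, ran them on a HiSeq4000, trimmed reads with cutadapt 1.9, aligned them with STAR to GRCm38 and tested with edgeR 3.16.5. The counter, its strand setting and its handling of reads with several alignments are not given in the sources used here. The authors deposited FPKM values, and for 19210 genes also a signal, CPM on the scale of an effective library size. Their own log2 fold-changes and p-values in that table were not used. Reads were recovered from the scaled values (100% whole, tolerance 0.01). Of the mitochondrial genes 23 are in that table, and the reads of the other 14 were recovered from FPKM and gene length. All 207 values of the genes in both tables gave the same reads. No sample column was left unmatched (0).

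Since the deposited values are no counts, limma 3.58.1 (eBayes with trend) in R 4.3.3 was run on log2(FPKM+0.1), on 9 libraries without a block, for genes that average 0.1 FPKM or more. Calls needed an adjusted p no higher than 0.05 and a log2 fold-change of 1 or more in size, and a second rule used the adjusted p alone. The fold-change of a low gene on this scale depends on the pseudocount. At 24 h it was larger in size for mt-Tt (-4.73) and mt-Tw (-2.46) than by edgeR (-4.33 and -2.29). edgeR 4.0.16 and DESeq2 1.42.0 were run on recovered reads. Alternatives were pseudocounts of 1 and 0.01, no filter, a mean FPKM of at least 1, quantile and median scaling, nuclear genes scaled to a common sum, only the time points compared, the replicate block, and each library left out.

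The labels number the replicates 1 to 3 at each time. Deviations of same-numbered libraries from their group means correlated in all 9 pairs (r from 0.211 to 0.548 across 11893 genes), against -0.399 to 0.11 in 18 pairs of other numbers, so the numbers were taken as pairs. With 3 against 3 libraries an exact permutation test of 1 gene cannot go below 0.1, and none was run.

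All coding and rRNA genes are named, as are tRNA genes with a mean of at least 10 reads or a call, and from each nuclear list its called genes and the 2 with the highest mean FPKM; Tcf3 is the induction check. Where the text gives other members, these were chosen after their values were seen. The gene set and lists were chosen with earlier results of these data known. Of the symbols in the lists 1 (Mtrfr) had no match. Copies were sought as shared words of 50 nt and by pairwise alignment in GENCODE M21 transcripts. Fits were tested on simulated data. Intervals and floors cover counting error only.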

Additional observations from a re-analysis of the deposited data

How the results depend on the processing

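The number of mitochondrial genes called was 5 at 18 h and 5 at 24 h. At 18 h it was 2 with no filter on FPKM, in which all 37 genes of the set were tested and mt-Nd4l, at the floor of 3 reads, was called beside mt-Tl1 (adjusted p of mt-Rnr2 0.0709, mt-Tt 0.066 and mt-Tw 0.152), and 9 with no minimum fold-change. With each library left out it was 3 to 5 at 18 h and 3 to 6 at 24 h, and 3 at 18 h without replicate 1 or 3 of 0 h or replicate 2 or 3 of 18 h, and 3 at 24 h without replicate 2 of 0 h. The cause was not tested. With the replicate block it was 5 at 18 h and 6 at 24 h, the gene added being mt-Tv, and among the mitochondrial genes the block in limma changed no other call or pass than those given with the results. By edgeR with the block mt-Nd2 and mt-Nd6 also passed the adjusted p at 24 h (0.0225 and 0.0239). Between 24 h and 18 h it was 0 in all alternatives. With each library left out, the rRNA level at 18 h was 63.8 to 74.6% of 0 h and the tRNA level 40 to 47.3%, both highest without replicate 2 of 0 h. The log2 fold-change of mt-Nd2 at 18 h turned to 0.01 after quantile normalization and lay between -0.16 and 0.05 when single libraries were left out. As shares of reads, the levels at 18 h were 86.6% (coding), 65% (rRNA) and 43.5% (tRNA). Scaling moved the median of all genes by at most 0.08. Quantile normalization left this median at 0.00 at 18 h and 24 h but moved abundant mitochondrial genes more. At 18 h mt-Co1 went from -0.40 to -0.07 and mt-Rnr1 from -0.18 to -0.05, and at 24 h mt-Nd1 went from -0.36 to -0.14. The tRNA mt-Tl1 moved little, from -1.82 to -1.76 at 18 h. Few reads limit the sparse genes: 15 of the 37 genes, of which 12 are tRNA genes and 3 coding genes, never exceeded 3 reads in a library.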
